A study of Mus musculus with 4 samples.

Results

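Promoters of 10 genes that mark endothelial cells were read from a table of H3K9me2 ChIP-seq counts covering 26354 mouse promoters. The genes are Pecam1, Cdh5, Kdr, Tek, Tie1, Vwf, Emcn, Nos3, Erg and Esam, listed by name as an identity set, and each has a row in the table. The 4 libraries came from medial aortic tissue of male C57Bl/6J mice that was fixed without culture after fat, adventitia and endothelium had been taken off by hand. They are 2 H3K9me2 ChIP libraries and 2 input libraries (chromatin sequenced without immunoprecipitation), 1 of each in the experiments numbered v102 and v134. No treatment was compared, ages and the number of animals behind a library are not given in the sources used here, and the libraries hold DNA, so the endothelial or smooth muscle label of the tissue could not be checked against RNA. Chromatin of every cell left in the tissue contributes reads, and a mark carried by few cells cannot be told apart from a low level in all of them.

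The inner lining of an artery is made by endothelial cells, which hold their identity through ETS transcription factors such as ERG, sense VEGF and angiopoietins through receptor tyrosine kinases, and join through VE-cadherin and immunoglobulin-like adhesion molecules. VSMCs of the medial layer do not use most of these genes. H3K9me2 is a histone mark written mainly by the methyltransferases EHMT2 and EHMT1 and is found on silent chromatin, often over broad domains. The comparison asked how much of this mark the promoters of another cell lineage carried in the medial layer.

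The 10 promoters were spread over much of the range of all promoters. By the ratio of summed H3K9me2 reads to summed input reads, the promoters of Tie1, Emcn, Vwf and Tek lay at or above the 75th percentile of all promoters (0.343), whereas Pecam1, Nos3 and Kdr lay at or below the 25th (0.078). By definition each boundary cuts off 25% of all promoters, so 4 and 3 of 10 are not far from that share. Among these promoters only Tie1 had a 95% interval for counting error that lay wholly beyond its boundary. Pooled reads of the set were close to those of all other promoters, at 1.16-fold in experiment v102 and 0.97-fold in experiment v134. Of the 10 promoters, 2 (Tie1 and Emcn) were above input and 2 (Pecam1 and Nos3) were below it (edgeR's quasi-likelihood test, adjusted p under 0.05), and Tie1 alone was called in each setting in which it was tested. Over all 26354 promoters, 18.6% were above and 17.0% below input in the same test, so the counts of 2 and 2 are near the background. When each ChIP library was paired with its input through a term for the experiment (the block), 1 member was above and 0 were below, and the shares over all promoters were 15.8% and 8.30%.

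The sequences just upstream of the RefSeq starts of Emcn, Tek, Kdr and Erg are shown because they differ in CpG dinucleotides. CpG content went with the H3K9me2/input ratio over all promoters. Emcn and Tek had high ratios and Kdr the lowest of the set, while Erg lay between the 25th percentile and the median. Each run is the 250 bases before the start in GRCm38.p6, read 5′ to 3′ on the gene's strand, and capitals mark CpG dinucleotides. The runs lie at chr3:137340828-137341077 on the plus strand for Emcn, chr4:94739039-94739288 on the plus strand for Tek, chr5:75978456-75978705 on the minus strand for Kdr, and chr16:95586594-95586843 on the minus strand for the most upstream start of Erg.
Emcn: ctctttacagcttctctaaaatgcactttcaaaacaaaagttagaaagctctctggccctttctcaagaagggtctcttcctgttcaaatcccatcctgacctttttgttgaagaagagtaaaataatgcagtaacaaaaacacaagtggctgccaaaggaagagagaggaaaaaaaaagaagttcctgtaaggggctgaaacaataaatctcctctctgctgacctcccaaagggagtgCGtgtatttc
Tek: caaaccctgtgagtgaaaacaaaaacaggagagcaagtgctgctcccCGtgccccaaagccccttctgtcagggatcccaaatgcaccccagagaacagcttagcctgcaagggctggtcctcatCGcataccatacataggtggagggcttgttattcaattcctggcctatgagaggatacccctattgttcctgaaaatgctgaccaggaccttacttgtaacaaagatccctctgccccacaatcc
Kdr: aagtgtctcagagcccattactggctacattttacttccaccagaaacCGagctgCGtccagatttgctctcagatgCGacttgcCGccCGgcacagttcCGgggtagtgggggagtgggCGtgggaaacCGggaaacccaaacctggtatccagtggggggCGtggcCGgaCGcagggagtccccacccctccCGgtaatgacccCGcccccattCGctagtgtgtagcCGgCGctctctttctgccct
Erg: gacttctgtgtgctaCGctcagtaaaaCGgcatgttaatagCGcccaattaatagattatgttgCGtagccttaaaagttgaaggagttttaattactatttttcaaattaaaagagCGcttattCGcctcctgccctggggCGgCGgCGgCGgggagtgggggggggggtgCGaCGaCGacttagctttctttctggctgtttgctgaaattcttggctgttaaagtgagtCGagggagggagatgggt

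Emcn held 1 CpG in these 250 bases and Tek held 2, whereas Kdr held 16 and Erg 14 before its most upstream start. The runs before the further Erg starts, not shown, held only 2 and 3, and which start the authors counted is not given. Upstream sequences were available here for 5 of the 10 genes, and the first listed promoters of 27025 RefSeq genes had a median of 6. Tie1, which had the highest ratio of the set but is not shown, held 6. Its RefSeq start lies 212 bases inside the GENCODE gene, and its run had 60.4% GC, near the 61.6% of Kdr. The contrast among the 4 runs shown thus did not extend to Tie1. GGAA, the core letters bound by ETS factors, was counted on both strands with overlapping matches. It occurred 4 times upstream of Emcn, 2 times upstream of Tek, 7 times upstream of Tie1 and 4 times upstream of Kdr. In the run before the most upstream Erg start it was not found, but the runs before the further Erg starts held 4 and 2. These letters are common, since 93.4% of the RefSeq promoters held at least 1 match, with a median of 3. A longer form that contains these letters, CCGGAA, had 1 match, upstream of Kdr (12.2% of all promoters held it). AACAAT, letters bound by SOX factors, had 1 match in each of the Emcn and Tek runs (9.65% of all promoters). It also had 1 in the run before the Erg start farthest downstream. No match to AGATAA, bound by factors of the family named for it (10.3% of all promoters), or to the core promoter element TATAAA (13.0%) was found in the 4 runs shown or in that of Tie1. The runs before the further Erg starts, not shown, held 1 match to each.

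At the median promoter there were 4 ChIP and 20 input reads in experiment v102, and 5 ChIP and 37 input reads in experiment v134. The libraries held 162233 and 229605 ChIP reads and 619100 and 1084349 input reads over the promoters, which is not the sequencing depth. Every ratio below therefore rests on few reads. Intervals are 95% Wilson intervals and, like the limit set by a count of 0 (3 reads), cover counting error only. The log2 H3K9me2/input ratio was scaled to the library totals after adding 1 read, is given as mean ± SD of the 2 experiments, and its percentile is the share of all promoters with a lower mean. The median promoter was at -0.31 on that scale and at -0.35 in edgeR's log2 fold change over input, so a value of 0 is not the typical promoter. Differences from input are given with edgeR's standard error (SE) and with the Benjamini-Hochberg adjusted p over all promoters. With the study's control loci, Actb had 0 and 1 ChIP reads against 31 and 53 input reads (percentile 0.66), and Magea2 had 3 and 7 against 6 and 16 (percentile 83.9).

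**Figure D1:**
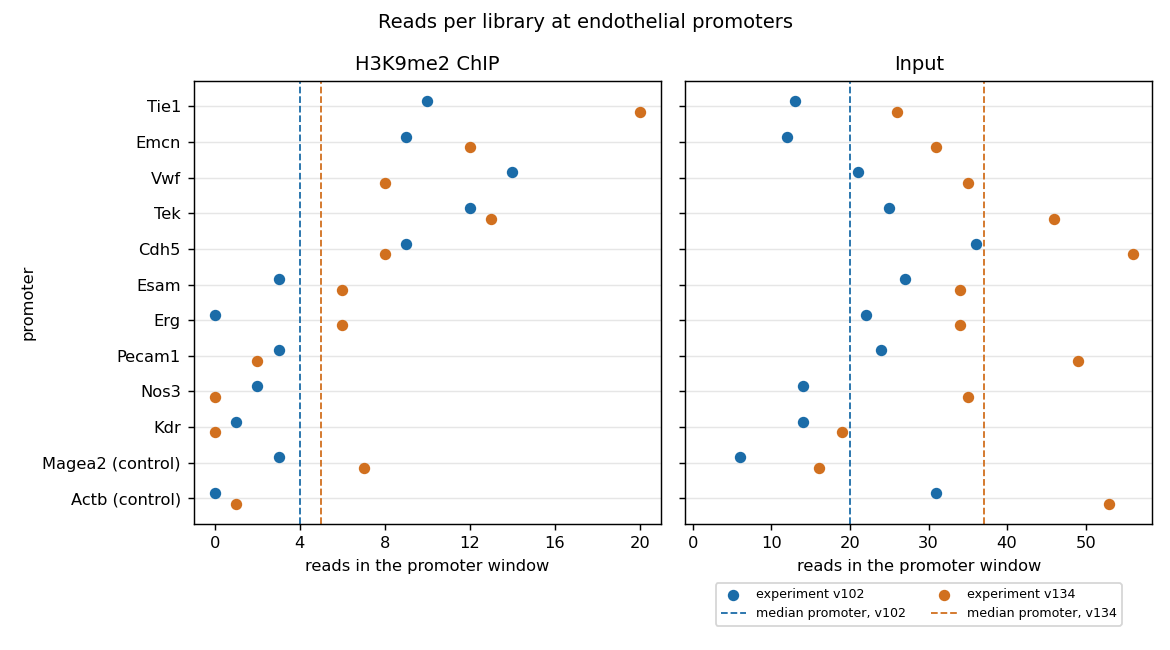
Reads in each promoter window (x axis) for the 10 endothelial promoters and the 2 control loci (y axis), with ChIP libraries on the left, input libraries on the right, 1 point per library, and dashed lines at the median promoter of each library. Tie1 had the most ChIP reads of experiment v134 (20) on few input reads (26), while Kdr and Nos3 had 0 ChIP reads there.

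Tie1 and Tek encode the TIE family of receptor tyrosine kinases, of which TEK (TIE2) binds angiopoietins and TIE1 modulates it, and Kdr encodes VEGFR2, the main signalling receptor for VEGF-A. Both TIE genes had more H3K9me2 reads than the typical promoter in both experiments and Kdr had fewer. Tie1 (ENSMUSG00000033191.14) spans 118471191 to 118490061 on the minus strand of chromosome 4 (GRCm38). In experiment v102 its promoter had 10 ChIP reads against 13 input reads, and in experiment v134 it had 20 against 26. The ChIP count was above that of the median promoter in both, and the input count below it. The ratio of summed reads was 0.769 (interval 0.480 to 1.23) and the log2 ratio was 1.73 ± 0.21 (SD, n = 2), at percentile 92.7. Scaled to library totals, Tie1 was 2.94-fold over the average promoter in experiment v102 (interval 1.32 to 6.55) and 3.63-fold in experiment v134 (2.04 to 6.46), so both intervals lay above 1. The log2 fold change over input was 1.87 (SE 0.45, adjusted p = 0.000303), and it was called with the experiment number as a block too (adjusted p = 0.00525). Its summed input of 39 reads was low, with 8.67% of promoters lower.

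Tek (ENSMUSG00000006386.15) spans 94739289 to 94874976 of the same chromosome (plus strand). Its ChIP reads were 12 (v102) and 13 (v134), against 25 and 46 for input, all above the median promoter. The ratio was 0.352 (interval 0.224 to 0.553) and the log2 ratio 0.71 ± 0.31 (SD, n = 2), at percentile 76.1. Its place in the top quartile was within counting error of the boundary, as were those of Emcn and Vwf. For Tek it held in experiment v102 (percentile 77.2) but not in experiment v134 (71.7). The log2 fold change over input was 0.76 (SE 0.43, adjusted p = 0.144), which is not a call.

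Kdr (ENSMUSG00000062960.10) spans 75932827 to 75978458 of chromosome 5 (minus strand) and had the lowest ratio of the set. A single library held the 1 ChIP read seen (v102), with 0 in the other, and input gave 14 and 19. The ratio was 0.0303 (interval 0.00524 to 0.175), and the log2 ratio was -1.53 ± 0.78 (SD, n = 2), at percentile 15.4. In experiment v134 the interval for a count of 0 reached 0.955-fold of the average promoter. The limit of 3 reads, which leaves out the error of the input count, was 0.746-fold. The edgeR test gave a log2 fold change of -2.68 (SE 1.16, adjusted p = 0.0558), just outside the threshold. For reads summed over both experiments its interval did not overlap that of either TIE gene. Within single experiments the scaled interval of Kdr overlapped that of Tek in both and that of Tie1 in experiment v102. At 33 summed input reads only 4.91% of promoters had fewer.

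Pecam1, Cdh5 and Esam encode CD31, VE-cadherin and an immunoglobulin-like molecule, which hold endothelial cells together at their junctions. None was above input, Cdh5 and Esam lay near the median promoter, and Pecam1 lay low. Cdh5 (ENSMUSG00000031871.9, chromosome 8 from 104101625 to 104144511, plus strand) had 9 and 8 ChIP reads against 36 and 56 for input, again with v102 first. This was the deepest input of the set, with 97.6% of promoters lower. Its ratio of 0.185 (interval 0.111 to 0.308) was at percentile 53.6, and its log2 fold change over input was -0.18 (SE 0.45, adjusted p = 0.773). That sign turned to 0.17, without a call, when at least 20 reads were asked of each input.

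Esam (ENSMUSG00000001946.14, chromosome 9 from 37528078 to 37538319, plus strand) had 3 and 6 ChIP reads against 27 and 34 input reads. The ratio was 0.148 (interval 0.0743 to 0.293), at percentile 45.3, and the log2 fold change was -0.52 (SE 0.58, adjusted p = 0.488). The intervals of Cdh5 and Esam both contained the median ratio of all promoters, 0.162, as did those of Erg, Pecam1 and Kdr, so none of these 5 was distinguishable from it by counting error at this depth.

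Pecam1 (ENSMUSG00000020717.19, chromosome 11 from 106654217 to 106750628, minus strand) had 3 and 2 ChIP reads against 24 and 49 input reads. Its ratio of 0.0685 (interval 0.0285 to 0.165) was at percentile 21.9, and it was below input with a log2 fold change of -1.57 (SE 0.66, adjusted p = 0.0478). The call did not hold with the experiment number as a block (adjusted p = 0.0922), without mitochondrial promoters (0.0526) or with at least 20 reads asked of every input library (0.117). The annotated start of Milr1 lies 598 bases away on the opposite strand, so a window on the outermost Pecam1 start also covers it. Of 8 Pecam1 transcripts in GENCODE, 1 starts within 1 kb of that position and the farthest starts 87.3 kb from it, and which start the authors used is not given in the sources used here.

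Emcn, Vwf and Nos3 encode endomucin (a surface sialomucin of capillary and venous endothelium), von Willebrand factor (the secreted platelet-binding protein of Weibel-Palade bodies) and endothelial nitric oxide synthase. Emcn and Vwf were on the high side in experiment v102, and Nos3 was among the lowest promoters in experiment v134. Emcn (ENSMUSG00000054690.17, chromosome 3 from 137341067 to 137432185, plus strand) had 9 and 12 ChIP reads against 12 and 31 input reads. The ratio was 0.488 (interval 0.291 to 0.818) and the log2 ratio 1.25 ± 0.43 (SD, n = 2), at percentile 85.6. It was above input with a log2 fold change of 1.24 (SE 0.49, adjusted p = 0.0349), but not with the experiment number as a block (adjusted p = 0.0763), with library totals in place of TMM scaling (0.060) or by DESeq2 (0.137). The summed input of Emcn, 43 reads, was low, with 12.9% of promoters lower.

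Vwf (ENSMUSG00000001930.17, chromosome 6 from 125546774 to 125686679, plus strand) had more ChIP reads in experiment v102 than in experiment v134, 14 against 8, on 21 and 35 input reads. It thus stood at percentile 85.6 in the first experiment and 65.4 in the second, with scaled folds of 2.54 (interval 1.31 to 4.94) and 1.08 (0.510 to 2.29) that overlapped. The ratio was 0.393 (interval 0.241 to 0.640), and the log2 fold change over input was 0.92 (SE 0.46, adjusted p = 0.0966).

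Nos3 (ENSMUSG00000028978.12, chromosome 5 from 24364810 to 24384474, plus strand) had 2 ChIP reads (v102) and 0 (v134), with 14 and 35 for input. The ratio was 0.0408 (interval 0.0109 to 0.152), and the log2 ratio was -1.66 ± 1.80 (SD, n = 2), at percentile 12.5. The low value came from experiment v134, where the interval for 0 reads reached 0.518-fold of the average promoter (0.405-fold by the limit of 3 reads). In experiment v102 Nos3 was at percentile 41.6. It was below input with a log2 fold change of -2.28 (SE 0.92, adjusted p = 0.0401), and not with the experiment number as a block (adjusted p = 0.116).

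Erg encodes the ETS factor that keeps many of the other genes active in endothelium. Erg (ENSMUSG00000040732.20, chromosome 16 from 95359169 to 95586593, minus strand) had no ChIP read (v102) and 6 (v134), with 22 and 34 for input. Its percentiles of 3.19 and 57.9 were the farthest apart in the set, but the scaled intervals (0 to 0.666 and 0.359 to 1.94) overlapped. The ratio was 0.107 (interval 0.0472 to 0.243), and the log2 fold change was -0.96 (SE 0.66, adjusted p = 0.242). RefSeq lists further Erg starts 56228 and 127245 bases downstream, and 1 of 8 GENCODE transcripts starts within 1 kb of the gene start. Vwf likewise has 1 of 11, Cdh5 1 of 2, Esam 2 of 6 and Tek 3 of 4 transcripts starting there, whereas all starts of Kdr, Tie1, Emcn and Nos3 fall within 1 kb.

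**Figure D2:**
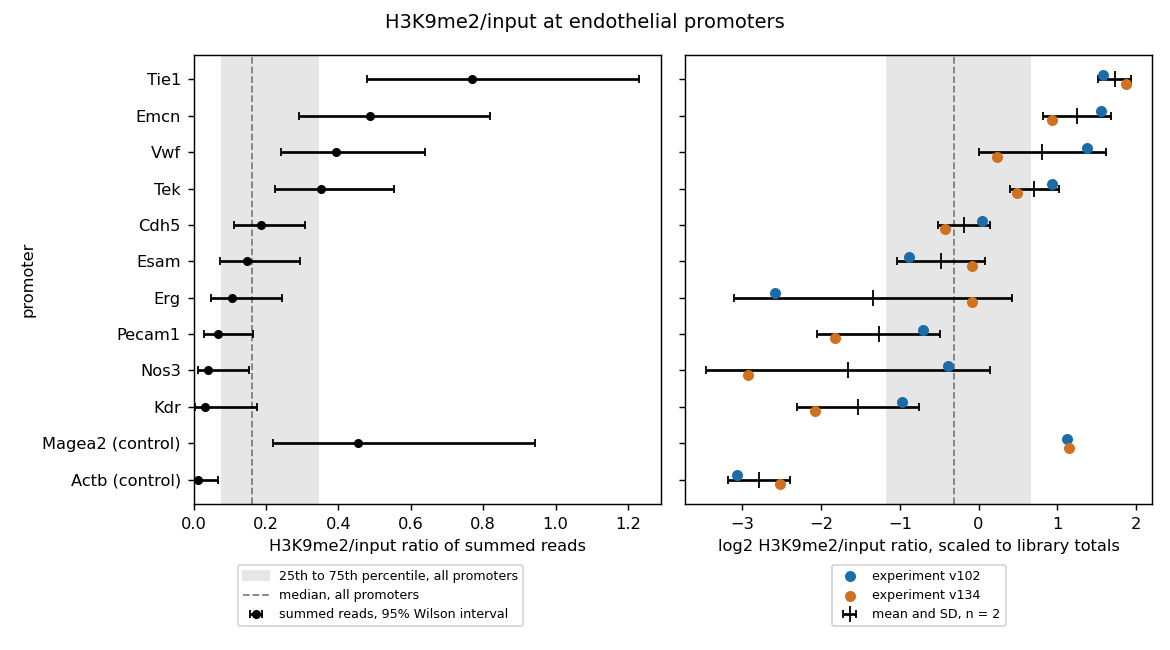
Left, H3K9me2/input ratio of summed reads with 95% Wilson intervals (x axis) at each promoter (y axis), with the middle range of all promoters shaded and their median dashed. Right, the scaled log2 ratio of each experiment with mean and SD. The points run from 0.769 at Tie1 to 0.0303 at Kdr, and neighbours in the order overlap.

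Ordered by the ratio, the set ran from Tie1 through Emcn, Vwf, Tek, Cdh5, Esam, Erg, Pecam1 and Nos3 to Kdr, and the ratio at Tie1 was 11.2 times that at Pecam1. None of the 9 pairs of neighbours in this order had intervals that stood apart. Of all 45 pairs, 16 did. The share among pairs of other promoters was not counted, so this number is not read as a trait of the set. Tie1, Emcn, Vwf and Tek each stood apart from Pecam1, Nos3 and Kdr, Tie1 also from Cdh5, Esam and Erg, and Emcn also from Erg. The 2 experiments ranked the promoters alike (Spearman rho 0.70, Pearson r 0.55 across 10 promoters, which share 4 libraries). At none of the 10 did the scaled intervals of the experiments stand apart, and the share over all promoters was not counted. Tie1 and Emcn were in the top quartile of the log2 ratio in both experiments, as were 17.7% of all promoters. Experiment v102 placed 4 of the 10 in its top quartile and experiment v134 placed 2.

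The set held 63 ChIP and 208 input reads in experiment v102 and 75 ChIP and 365 input reads in experiment v134. The pooled ratio of 0.303 in experiment v102 compared with 0.262 at all other promoters, a fold of 1.16 (interval 0.873 to 1.53). In experiment v134 it was 0.205 compared with 0.212, a fold of 0.97 (interval 0.757 to 1.24). The mean log2 fold was 0.08 ± 0.18 (SD, n = 2), a difference smaller than the spread between experiments. Without Tie1 the folds were 1.04 and 0.766, and without Pecam1 they were 1.24 and 1.09. The median percentile of the set was 49.4 and its median ratio 0.166, beside 0.162 over all promoters. With 2 experiments no permutation test of this difference can reach 0.05, and none was run.

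CpG content was examined because CpG-rich promoters are mostly active or poised. Over 22288 promoters with a sequence, the percentile of the H3K9me2/input ratio fell with CpG observed/expected in the 1 kb either side of the start (Spearman rho -0.52), and with GC content (rho -0.55). The values across promoters share the same 4 libraries and are descriptions. Composition was taken around the outermost GENCODE gene start, which may not be the start whose reads the authors counted. Within 1 kb of it lie the starts of 1 of 8 transcripts for Pecam1, 1 of 11 for Vwf and 1 of 8 for Erg. In 5 bins of equal size, the bin with the lowest CpG had a median ratio of 0.444, compared with 0.080 in the bin with the highest. Vwf, at percentile 78.0, was in the lowest bin, where the median percentile was 81.5. In the next bin were 6 members (Pecam1, Cdh5, Tek, Tie1, Emcn and Nos3), and none was in the highest. Promoters of that next bin had a median ratio of 0.206 and a median percentile of 58.5. The 6 endothelial members of it spanned percentiles from 12.5 at Nos3 to 92.7 at Tie1, which is the whole span of the set. Kdr, with a CpG observed/expected of 0.59 and 99 CpG in its window, had the most CpG of the 10. Across the set the percentile went with GC content with a rho of -0.71 and with CpG observed/expected with a rho of -0.41 (n = 10).
With the GC trend taken out by a lowess fit, Tie1 was at percentile 96.0, Emcn at 80.9, Vwf at 68.8 and Tek at 60.9. Tek and Vwf thus left the top quartile. Pecam1 moved down from 21.9 to 6.75 and Kdr up from 15.4 to 29.1. The part of base composition in the differences among the 10 promoters was not tested further.

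**Figure D3:**
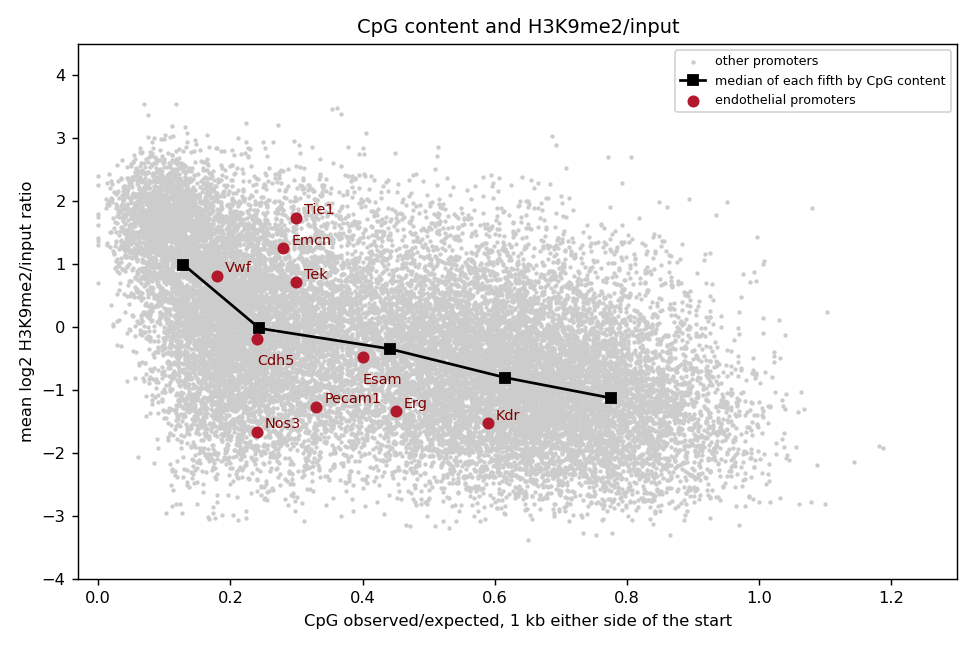
Mean log2 H3K9me2/input ratio (y axis) against CpG observed/expected of the window (x axis) for 22288 promoters in grey, with medians of the 5 CpG bins as black squares and the 10 endothelial promoters in red. Tie1 and Emcn lie above and Nos3 and Pecam1 below promoters of like CpG content, taken around the outermost GENCODE gene start.

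For the lists of related genes, the background is again 18.6% of all promoters above and 17.0% below input. Of 7 ligand promoters with a row, 2 were below input (1 with the block) and none above, with a median percentile of 21.3 compared with 50.0 over all promoters and a highest of 51.6. Those below were Vegfb (log2 fold change -2.55, SE 0.72, adjusted p = 0.00272) and Angpt2 (-2.12, SE 0.78, adjusted p = 0.0234, and 0.112 with the block). Vegfa, the principal VEGF, had 3 and 0 ChIP reads against 17 and 23 input reads, and Angpt1, the TEK agonist made by mural cells, had 4 and 6 against 24 and 35. Of 7 related receptors and co-receptors, 4 were below input (1 with the block) and none above, with a median percentile of 19.4. Their median CpG observed/expected was 0.70, compared with 0.44 over all promoters. Flt1, the VEGFR1 gene, was at percentile 19.4 with 2 and 2 ChIP reads against 28 and 36 input reads (adjusted p = 0.0457, and 0.0866 with the block). Pdgfrb, the PDGF receptor gene active in VSMCs, had no ChIP read against 23 and 35 input reads. Kit and Pdgfra were below input as well, though not with the block (adjusted p = 0.0843 and 0.0564), and Nrp1, Nrp2 and Csf1r lay between percentiles 28.1 and 42.7. Tie1 and Tek, at 92.7 and 76.1, were higher than each of these 7 receptor genes, while Kdr at 15.4 lay within their range. Whether that contrast exceeds what 2 experiments give was not tested.

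Relatives of the other members were mixed. Among 18 classical and type II cadherins the median percentile was 46.7, with 2 above input and 3 below, neither count over the background share. The neuronal cadherin genes Cdh9 (percentile 95.3) and Cdh7 (89.4) were above input, each with the block too. Cdh22, Cdh3 and Cdh24 were below input, and only Cdh22 of these was called with the block as well. N-cadherin, Cdh2, which VSMCs use, had 1 and 1 ChIP reads against 12 and 23 input reads. Of 12 junction and adhesion relatives, 1 was below input, Mcam, a gene shared by endothelium and VSMCs (1 and 0 ChIP reads against 25 and 32 input reads, adjusted p = 0.0052). The tight junction genes F11r and Cldn5 were at percentiles 76.9 and 49.7, and Icam2 was at 39.2. Of 4 sialomucin genes, Podxl and Cd164 were below input, while Cd34 was at percentile 45.6 and Podxl2 at 70.8. Nos2, the inducible nitric oxide synthase, was below input (1 and 1 ChIP reads against 19 and 56 input reads, adjusted p = 0.00341), and neuronal Nos1 was at percentile 45.9.

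Of 23 other ETS factor genes, 3 were above and 5 below input, with a median percentile of 32.7. These counts are close to the background of 18.6% and 17.0%, and with the block 3 were above and 0 below. Fli1, the nearest relative of Erg and also an endothelial factor, was below input with 1 and 2 ChIP reads against 21 and 40 input reads (adjusted p = 0.0312, and 0.0764 with the block). Those above input were Elf5, an epithelial and trophoblast factor, at percentile 91.5, Spic, a macrophage factor, at 88.3, and the widely expressed Ets2 at 81.7. Of 16 other endothelial transcription factor genes, 3 were below input, near the background of 17.0%, and none above, with a median percentile of 31.2. These were Hey2, a Notch target, Lyl1 and Foxc2, the last without a call under the block (adjusted p = 0.0999). Sox7 and Hhex had the highest values of this list, at percentiles 81.8 and 79.9, with adjusted p of 0.0586 and 0.050, the latter not under 0.05.

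The 44 other endothelial surface and secreted genes lay on both sides of the median promoter. Their median percentile was 54.6 and their median ratio 0.189, with 1 above and 7 below input (1 and 3 with the block). The count below is near the background of 17.0%, and the count above is under that of 18.6%. Mmrn1, which encodes a multimerin of endothelium and platelets, was the gene above input (10 and 15 ChIP reads against 7 and 37 input reads, log2 fold change 1.48, SE 0.46, adjusted p = 0.00705). Dll4, the Notch ligand of arterial tip cells, had no ChIP read against 20 and 29 input reads, which was below input with and without the block (adjusted p = 0.0161 and 0.00161). Edn1, the endothelin-1 gene, had 0 and 1 ChIP reads against 21 and 51 input reads (adjusted p = 0.00109), and Gja5, the connexin 40 gene, had 0 and 1 against 22 and 36 (adjusted p = 0.0049). Bmpr2 had the next largest difference (adjusted p = 0.0199, and 0.0626 with the block).

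Genes of the labelled cell type and of leukocytes were set beside these values. Their lists, too, were chosen with earlier results of these data known. Over all promoters 18.6% were above and 17.0% below input, and 15.8% and 8.30% with the block. Of 21 contractile smooth muscle promoters, 9 were below input and 1 above (3 and 1 with the block), with a median percentile of 18.1 and a median ratio of 0.058. Among them Myh11, the smooth muscle myosin heavy chain gene, had no ChIP read against 19 and 41 input reads. Of 19 leukocyte promoters, 7 were above and 2 below input (6 and 0 with the block), with a median percentile of 72.9 and a median ratio of 0.311. The largest log2 fold changes were 2.07 at Ms4a1 (CD20), 1.96 at Cd8a, 1.82 at Ptprc (CD45) and 1.52 at Itgam (CD11b). Csf1r, a macrophage gene, is counted here and among the receptor relatives. The endothelial set, at 49.4, thus lay between the contractile and the leukocyte lists. The median CpG observed/expected was 0.30 for the endothelial, 0.32 for the contractile and 0.20 for the leukocyte list, compared with 0.44 over all promoters, and its part in these differences was not tested. No test of one list against another was made, and the single genes of a list overlap those of the others, the lowest percentiles being 12.5, 0.734 and 9.48 in that order.

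**Figure D4:**
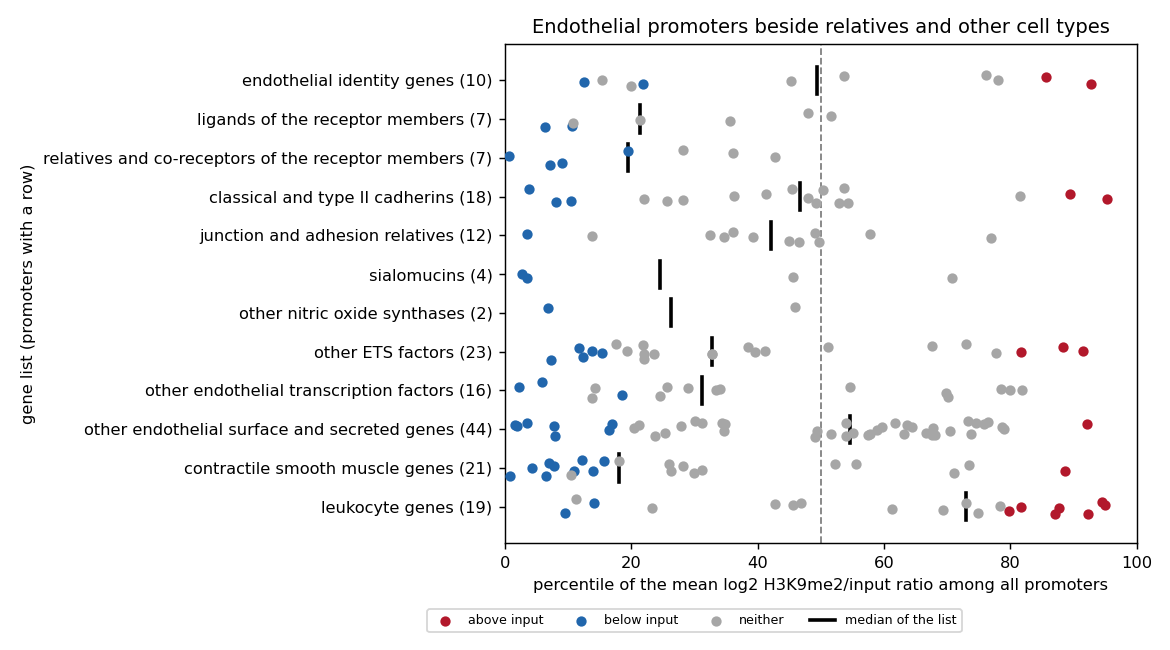
Percentile of the mean log2 H3K9me2/input ratio among all promoters (x axis) for the promoters of each gene list (y axis, number with a row in parentheses), 1 point per promoter, coloured by the edgeR call, with black bars at list medians. The endothelial points spread from 12.5 to 92.7 around a median of 49.4, with contractile genes lower (18.1) and leukocyte genes higher (72.9).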

How the data were processed

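H3K9me2 ChIP and input libraries of 2 experiments were analysed (n = 2 per group). Per the labels and methods, the authors trimmed paired-end reads with Cutadapt (Trim Galore 0.4.2 and cutadapt 1.9.1 in the submitters' processing notes), aligned them to GRCm38 with Bowtie2 2.2.7, used SeqMonk to count reads in windows of 1 kb either side of transcription starts, and removed promoters with few input reads. They deposited raw counts per promoter and library, their sums, and a ratio (summed ChIP over summed input), which is not scaled for depth. The lowest summed input is 21 reads. Duplicate treatment and annotation release are not given in the sources used here, and no aligned reads were used.

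ChIP was compared with input over all 26354 promoters by edgeR 4.0.16 (R 4.3.3, TMM scaling, glmQLFit, Benjamini-Hochberg at 0.05). SE is the log2 fold change divided by the square root of F. DESeq2 1.42.0, a block for the experiment number, library totals, a minimum of 20 reads in each input and removal of the 30 mitochondrial promoters were alternatives. Each ChIP has its associated input in the study's methods, so the experiment number pairs the libraries (correlation of their deviations 0.0846). The edgeR script was tested on simulated data. Gene positions come from GENCODE M21 and window composition from GRCm38.p6 for 22288 promoters (84.6%), with a lowess fit (fraction 0.3) for GC. Upstream sequences were credited to RefSeq. Python 3.11.15 with scipy 1.17.1, statsmodels 0.14.6 and matplotlib 3.10.9 was used.

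The 10 members and all lists were chosen with earlier results of these data known. Named are all members, the controls Actb and Magea2, any relative of a member, starts within 5 kb of a member, and up to 4 called genes in each direction of the other lists. Vegfa and Angpt1, and Sox7 and Hhex for the highest values of their list, were named without a call. That the replicates are separate animals is not stated, so p-values measure the spread between these libraries. The antisense gene Gm29682 starts 4248 bases from Cdh5 and, like Milr1, has no value here.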

Additional observations from a re-analysis of the deposited data

How the results depend on the processing

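Over all promoters, 4902 were above and 4484 below input. DESeq2 called 3026 and 29 and left 17372 adjusted p-values undefined, those of Pecam1, Kdr, Nos3, Erg and Esam among them. A minimum of 20 reads in both inputs kept 13993 promoters, of which 2446 and 1678 were called. With the replicate block the counts were 4173 and 2187. Of the endothelial promoters 2 were above input, and 1 with library totals, by DESeq2 or with the replicate block, Tie1 each time. With the 20-read minimum 2 were above (Tek, adjusted p = 0.0432, and Vwf, 0.0179), while Tie1, Emcn, Kdr and Nos3 were not tested. Of the 2 below input, 0 remained by DESeq2, with the replicate block or with the 20-read minimum, and 1 (Nos3) without mitochondrial promoters. With library totals 3 were below, Kdr added. The median log2 fold change over all promoters moved by -0.14 with library totals. With the 20-read minimum it differed by 0.11, but over a smaller set of promoters. Each of the 6 members kept rose with the 20-read minimum. Pecam1 went from -1.57 to -1.25, Tek from 0.76 to 1.11 and Vwf from 0.92 to 1.26. Erg went from -0.96 to -0.61 and Esam from -0.52 to -0.15. The log2 fold change at Cdh5 turned from -0.18 to 0.17 with that minimum, without a call. Apart from the cases where fewer promoters were tested, the cause was not tested.

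The median percentile of the set, 49.4, was 57.9 without experiment v102 and 48.0 without experiment v134, 57.1 over the 6 members that met the 20-read minimum, 41.7 when 5 reads were added as pseudocount, and 62.1 with the GC trend taken out. It was 49.3 without mitochondrial promoters and 50.5 with a pseudocount of 0.5 reads. The pooled log2 fold of 0.08 stayed within its SD of 0.18 in each alternative run, from -0.08 without mitochondrial promoters to 0.21 without experiment v134, and changed sign among them (-0.04 without experiment v102). Leaving out an experiment leaves 1 library in each group, so no test was possible there.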

Other observations

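Smtn, the gene of the contractile protein smoothelin, was the contractile promoter above input. It had 15 and 34 ChIP reads against 22 and 58 input reads, a ratio of 0.613 (95% Wilson interval 0.430 to 0.872, counting error only) and percentile 88.7 (edgeR log2 fold change 1.57, SE 0.36, adjusted p = 0.000169, blocked by experiment 0.00118). Among leukocyte promoters Cd14 and Cd4 were below input, at percentiles 14.0 and 9.48 (adjusted p = 0.0258 and 0.0288, and 0.0584 and 0.0843 with the block).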
